A study of Mus musculus with 2 samples.

Results

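The 10 genes described here encode the VEGF ligands and their receptors. The ligands are *Vegfa*, *Vegfb*, *Vegfc*, *Vegfd* and *Pgf*, and the receptors are *Flt1*, *Kdr*, *Flt4*, *Nrp1* and *Nrp2*. They were taken by symbol from the 32285 genes of the count matrix, and all 10 had UMIs (unique molecular identifiers, each counting 1 captured transcript) in the cells kept. The study profiled single cells of shaved dorsal skin from untreated wild-type male mice, with 1 library of 2 pooled mice at 9 weeks (9wk) and 1 at 108 weeks (108wk). No strain was given in the labels. Cells had been sorted as F4/80+ with high MHC class II, a gate aimed at macrophages. The matrix marks the libraries only by a barcode suffix, 1 or 2, that nothing used here tied to an age, so the ages were not compared and the suffixes are given as 2 libraries side by side. With 1 library per age there is no replicate and no test, and every interval below is a 95% interval for counting error alone.

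Secreted VEGF proteins act through receptor tyrosine kinases on endothelial cells. VEGF-A binds VEGFR-1 (*Flt1*) and VEGFR-2 (*Kdr*), and most of its effect on vessel growth and permeability passes through VEGFR-2. VEGF-B and placental growth factor (*Pgf*) bind VEGFR-1, which also exists as a soluble decoy. VEGF-C and VEGF-D bind VEGFR-3 (*Flt4*), the main receptor of lymphatic vessels, and neuropilins (*Nrp1*, *Nrp2*) are co-receptors that also bind class 3 semaphorins. Counts from 3′ ends cannot separate soluble from membrane-bound *Flt1*, or the isoforms of *Vegfa*.

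The filter kept 3797 of 5257 barcodes, 2396 with suffix 1 (32802942 UMIs) and 1401 with suffix 2 (17997946 UMIs). Median depth was 10761 and 11196 UMIs per cell, and 1 barcode sequence occurred in both libraries. Despite the gate, marker genes placed many cells outside the macrophages. There were 1541 macrophage-like, 498 dendritic-like, 827 fibroblast-like, 276 endothelial-like, 77 mural-like (pericytes and smooth muscle) and 77 keratinocyte-like cells. Each class had UMIs of every marker on its own list. A further 167 vascular cells carried endothelial and mural markers together and are called mixed vascular. Macrophage-like cells came mostly from suffix 1 (1247 against 294), and fibroblast-like cells mostly from suffix 2 (509 against 318). Since the gate and the recovery set how many cells of each class were captured, levels are given as counts per 1000000 UMIs (CPM) of a class, and shares of the total say nothing of the intact skin.

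The kinase receptors were concentrated in endothelium. A gene was called led by a class when its level there was at least 2-fold above the next of 5 classes (macrophage-, endothelial-, mural-, fibroblast- and keratinocyte-like). By this rule endothelial-like cells led 3 of the 10 members, *Flt1*, *Kdr* and *Flt4*, where 4.22% of 12735 genes with at least 50 UMIs were led by that class. None of the 10 was led by macrophage-like (8.56% of all genes), mural-like (4.04%), fibroblast-like (5.44%) or keratinocyte-like cells (6.34%). For each of these classes, none among 10 genes is close to its share of all genes, so this marks no trait of the ligands. Under some other settings fibroblast-like cells led *Vegfc*, *Vegfd* or both, and mural-like cells led *Vegfc* or *Pgf*. In a choice made after seeing the data, mural-like cells were narrowed to those without a UMI of *Cdh5*, *Pecam1* or *Cldn5*. Endothelial-like cells then led 4 members, with *Nrp1* the added one, and fibroblast-like cells led *Vegfc*.

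**Figure D1:**
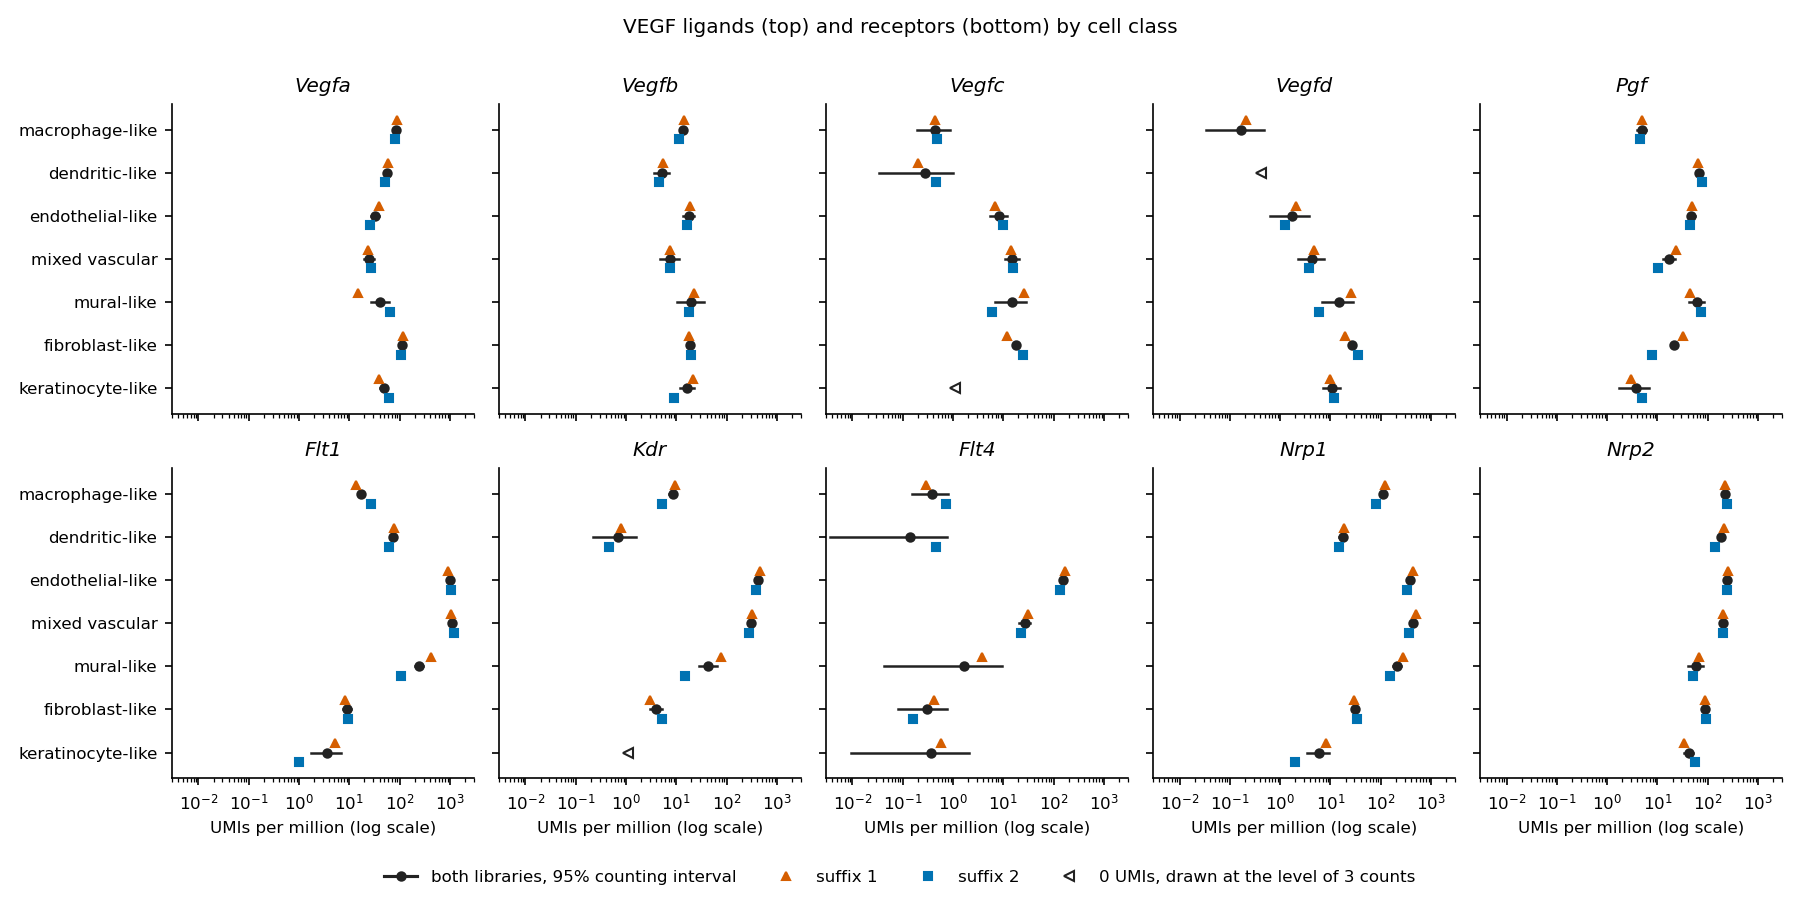
Level of each member (CPM, log axis) in 7 groups of cells. Black points pool both libraries with 95% counting intervals, triangles and squares give the libraries, and open arrows mark 0 UMIs at the level of 3 counts, while a library at 0 has no mark. *Flt1*, *Kdr* and *Flt4* peak in endothelial-like and mixed vascular cells, whereas *Vegfa* runs only from 25.1 in mixed vascular to 111 in fibroblast-like cells.

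Among the 5 classes *Vegfa* was highest in fibroblast-like and macrophage-like cells. Fibroblast-like cells held 1493 UMIs, a level of 111 CPM (interval 105 to 116), with 115 and 106 CPM in the libraries of suffix 1 and 2. Macrophage-like cells held 1583 UMIs at 86.7 CPM (82.5 to 91.1), with 88.0 and 82.6 CPM by library. The fibroblast-like level was the higher in both libraries, by 0.35 on the log2 scale (0.25 to 0.46), which is well under the 2-fold rule. Keratinocyte-like cells had 48.0 CPM, mural-like cells 41.7 and endothelial-like cells 32.8. Outside the 5 classes, dendritic-like cells had 57.3 CPM, 52 unnamed cells 89.0 (63.6 to 121) and mast-like cells 69.8 (12 UMIs). The intervals of keratinocyte-like (40.2 to 57.0), mural-like (27.0 to 61.5) and endothelial-like cells (27.1 to 39.3) did not separate mural-like cells from either of the others. The mural-like level was unstable, with 14.9 CPM (4 UMIs) in suffix 1 and 63.3 CPM (21 UMIs) in suffix 2, against 38.2 and 26.2 CPM in endothelial-like cells, so that the order turned between the libraries. In suffix 2 the log2 difference, endothelial-like over mural-like, was -1.27 (-2.06 to -0.44). Of the 3930 *Vegfa* UMIs in kept cells, 40.3% lay in macrophage-like and 38.0% in fibroblast-like cells.

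A *Vegfa* UMI was found in 408 of 1541 macrophage-like cells, with up to 26 in 1 cell. After each cell was thinned to 2000 UMIs to even out depth, *Vegfa* was detected in 11.4% of macrophage-like cells (9.84 to 13.2) and 15.6% of fibroblast-like cells (13.2 to 18.4). Without thinning the shares were 26.5% and 48.6%, at median depths of 10215 and 13097 UMIs.

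Most captured UMIs of *Vegfc* and *Vegfd*, the lymphatic ligands, lay in fibroblast-like cells, and macrophage-like cells had few. *Vegfc* stood at 17.9 CPM in fibroblast-like cells (15.7 to 20.3), 15.04 in mixed vascular, 14.995 in mural-like and 8.20 in endothelial-like cells. Macrophage-like cells had 8 *Vegfc* UMIs in all, or 0.44 CPM (0.19 to 0.86), so the fibroblast-like level was 5.35 higher on the log2 scale (4.35 to 6.58). *Vegfd* stood at 26.8 CPM in fibroblast-like cells (24.2 to 29.8), against 3 UMIs and 0.16 CPM in macrophage-like cells and 0 UMIs in dendritic-like cells, where 3 counts would be 0.42 CPM. Keratinocyte-like cells had 10.6 CPM of *Vegfd* (7.12 to 15.3, 29 UMIs). Fibroblast-like cells held 85.0% of all *Vegfd* UMIs and 69.3% of all *Vegfc* UMIs. The levels of both genes in mural-like cells rested on 9 UMIs each (14.995 CPM, 6.86 to 28.5), which left them inseparable from fibroblast-like cells: the interval of the log2 difference, fibroblast-like over mural-like, held 0 for *Vegfc* (-0.70 to 1.40) and for *Vegfd* (-0.10 to 1.98). In suffix 1 the order turned for both genes, with 26.1 CPM of each in mural-like cells (7 UMIs each, 10.5 to 53.7). Fibroblast-like cells there had 11.7 CPM of *Vegfc* (9.30 to 14.4) and 19.4 CPM of *Vegfd* (16.3 to 22.9), so the intervals overlapped. Suffix 2 had 6.03 CPM of each in mural-like cells (2 UMIs each, 0.73 to 21.8), against 25.0 and 35.4 CPM in fibroblast-like cells.

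Fibroblast-like cells were themselves divided over the ligands. *Vegfd* reached 159 CPM (119 to 209) in cluster 24, led by *Dcn*, *Clec3b* and *Pi16*, which had only 27 cells. It was at 53.7 CPM (46.5 to 61.8) in cluster 0, led by *Dcn* and *Has1*. The other 3 fibroblast-like clusters had between 10.0 and 14.0 CPM. *Vegfc* was highest in cluster 8, at 41.3 CPM (34.3 to 49.4), a cluster of which 172 of 186 cells came from suffix 2. Other clusters were also uneven by library. In cluster 0, 294 of 355 cells came from suffix 2, and in cluster 10, 146 of 148 came from suffix 1. Cluster and library are thus partly tied in these comparisons. *Vegfa*, at 159 CPM (146 to 173), and *Pgf*, at 70.9 CPM (62.2 to 80.5), were highest in cluster 14, led by *Igfbp3* and *Prlr*. The libraries gave 159 and 162 CPM of *Vegfa* and 71.1 and 68.8 CPM of *Pgf* in that cluster, while its *Vegfd* was 10.0 CPM. In the remaining fibroblast-like clusters *Pgf* was at most 7.92 CPM.

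**Figure D2:**
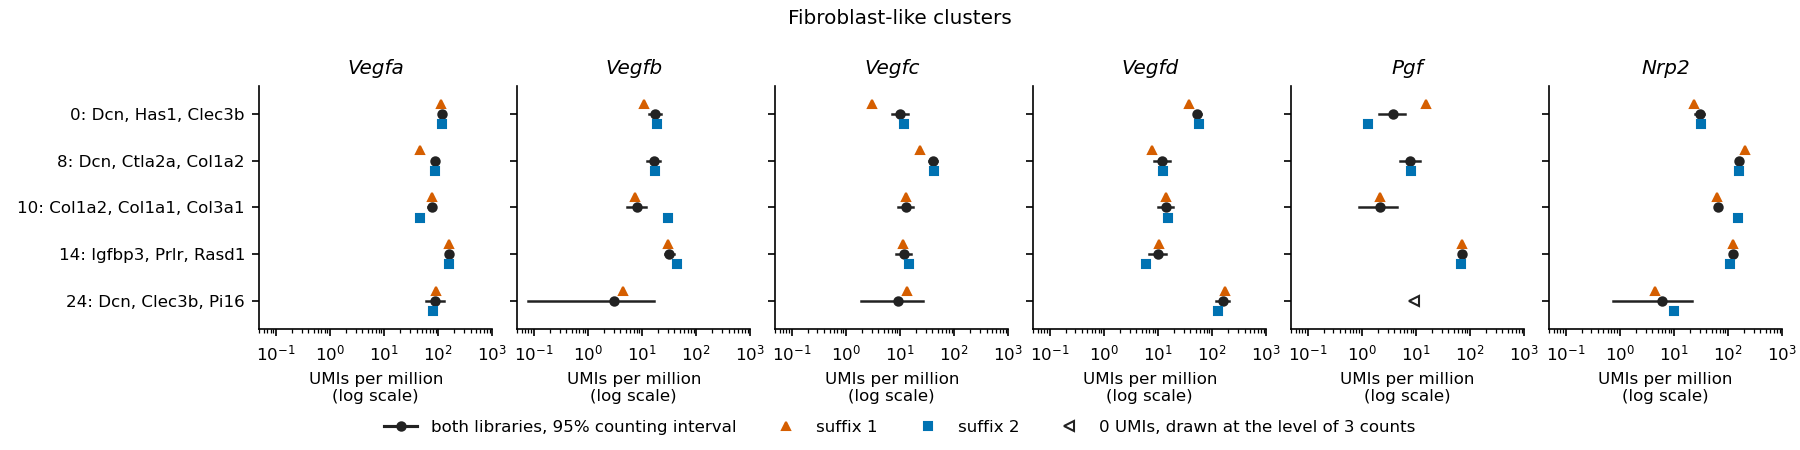
Levels of the 5 ligands and *Nrp2* in the 5 fibroblast-like clusters (CPM, log axis), each named by its number and 3 leading genes, with 95% counting intervals and both libraries. *Vegfd* is highest in clusters 24 and 0, *Vegfc* in cluster 8, and *Vegfa* and *Pgf* in cluster 14.

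*Vegfb* was low and even over the 5 classes, from 13.8 CPM in macrophage-like to 19.99 CPM in mural-like cells (10.3 to 34.9, 12 UMIs). Its highest level was outside them. The 90 skeletal muscle-like cells had 163 CPM (124 to 210, 60 UMIs), 3.15 above fibroblast-like cells on the log2 scale (2.72 to 3.56), with 130 and 271 CPM by library. These muscle-like cells were shallow, at a median of 2367 UMIs.

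*Pgf* had sources of several kinds. Dendritic-like cells had 68.5 CPM (62.6 to 74.9), mural-like cells 60.0 (42.0 to 83.0) and endothelial-like cells 47.2 (40.3 to 54.9), against 4.88 CPM in macrophage-like cells (3.92 to 6.002). The mural-like interval overlapped the other two. The dendritic-like level depends on how cells are named: named one by one from their own markers, 22 dendritic-like cells with 5 *Pgf* UMIs remained, and the log2 difference from macrophage-like cells turned from 3.81 to -0.13. Mural-like cells without a UMI of *Cdh5*, *Pecam1* or *Cldn5* kept *Pgf* at 72 CPM (26 UMIs). In fibroblast-like cells the libraries differed, with 32.5 CPM in suffix 1 and 7.96 in suffix 2. Cluster 14, the fibroblast-like cluster highest in *Pgf*, held 79 of the 318 fibroblast-like cells of suffix 1 and 32 of the 509 of suffix 2. Its part in the difference was not tested. Few cells carried the transcript. All 495 UMIs of the dendritic-like cells lay in 80 of 498 cells, with up to 36 in 1 cell, and the 167 UMIs of the endothelial-like cells lay in 24 of 276 cells, with up to 32 in 1 cell.

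Among the receptors, *Flt1* and *Kdr* were high in endothelial-like and mixed vascular cells. Endothelial-like cells had a *Flt1* level of 995 CPM (962 to 1028), 927 and 1077 by library, and mixed vascular cells 1123 CPM (1084 to 1163). Mural-like cells had 243 CPM, dendritic-like cells 72.6, macrophage-like cells 17.0, fibroblast-like cells 8.90 and keratinocyte-like cells 3.67. *Kdr* was at 424 CPM in endothelial-like cells (402 to 446), 456 and 385 by library, 303 in mixed vascular and 43.3 in mural-like cells. It was at 8.49 CPM in macrophage-like and 4.005 in fibroblast-like cells, and no *Kdr* UMI was found in keratinocyte-like cells, where 3 counts would be 1.10 CPM. After thinning, *Kdr* was detected in 50.6% of endothelial-like cells (44.3 to 56.9) and in 0 of 73 keratinocyte-like cells, which allows a share of up to 4.11% of cells with a UMI at this depth, and says nothing of cells that express the gene below it. *Flt4* was nearly confined to the vessels in these cells, at 153 CPM in endothelial-like cells (141 to 167) and 26.5 in mixed vascular cells, with at most 7 UMIs in any other of the classes above.

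Endothelial RNA was present in the mural-like cells. Their 8 endothelial markers summed to 941 CPM, against 5932 in endothelial-like and 19.8 in macrophage-like cells. In the 55 of 77 mural-like cells without a UMI of *Cdh5*, *Pecam1* or *Cldn5*, *Flt1* was at 36.0 CPM (13 UMIs) and *Kdr* and *Flt4* had no UMI. *Nrp1* remained at 152 CPM there, compared with 212 CPM in all mural-like cells. The libraries also differed, with mural-like *Flt1* at 414 CPM in suffix 1 and 106 CPM in suffix 2. The lead of endothelial-like over mural-like cells was 2.03 on the log2 scale for *Flt1* (1.79 to 2.28), 3.29 for *Kdr* (2.73 to 3.91) and 6.53 for *Flt4* (4.04 to 11.8, with 1 mural-like UMI).

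The sequences before the start sites of *Flt1* and *Kdr*, the pair of receptors with the most endothelial UMIs, are shown for reference, since ETS-family factors are known regulators of endothelial genes. Both genes lie on chromosome 5, on the minus strand of GRCm38 (mm10), *Flt1* at 147561604 to 147726011 and *Kdr* at 75932827 to 75978458. The RefSeq windows (GRCm38.p6, minus strand) hold the 250 bases before each start, at chr5:147726012-147726261 and chr5:75978456-75978705. Capitals mark the letters GGAAG, one form of the ETS core, or their reverse complement.
Flt1: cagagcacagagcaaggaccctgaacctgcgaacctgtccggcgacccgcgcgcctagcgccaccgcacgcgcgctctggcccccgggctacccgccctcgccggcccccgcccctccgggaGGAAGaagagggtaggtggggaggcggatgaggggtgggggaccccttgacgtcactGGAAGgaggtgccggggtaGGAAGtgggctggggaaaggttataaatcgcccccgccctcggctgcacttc
Kdr: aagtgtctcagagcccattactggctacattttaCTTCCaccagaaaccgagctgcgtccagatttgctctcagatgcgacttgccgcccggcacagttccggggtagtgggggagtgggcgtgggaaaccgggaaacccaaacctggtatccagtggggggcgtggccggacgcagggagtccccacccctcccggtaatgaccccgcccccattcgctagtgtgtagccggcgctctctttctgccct
*Flt1* held 3 such matches and *Kdr* 1, where 64.1% of the 32851 RefSeq windows of this length hold at least 1, so the letters are common and describe neither gene in particular. The GC box GGGCGG, sought on both strands, occurred 3 times in *Flt1* and 2 times in *Kdr*, and in 32.7% of all windows. The letters ACGTG, the core of the hypoxia response element, were in neither window, and in 16.6% of all windows.

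Blood and lymphatic endothelium differed in *Flt1*, *Nrp1* and *Flt4* by far more than in *Kdr* and *Nrp2*. The 56 lymphatic cells (cluster 18, led by *Ccl21a* and *Mmrn1*, with UMIs of all 5 lymphatic markers) were compared with the 220 other endothelial-like cells. *Flt4* was at 532 CPM in lymphatic (485 to 582; 537 and 522 by library) and 27.1 CPM in blood endothelial cells (21.2 to 34.2), a difference of 4.29 on the log2 scale (3.93 to 4.67). *Flt1* went the other way, at 4.51 CPM (4 UMIs) in lymphatic against 1326 CPM in blood endothelial cells, a log2 difference of -8.20 (-10.1 to -6.84). *Nrp1* had 6 UMIs in lymphatic cells, 6.77 CPM, against 517 CPM in blood endothelial cells, a log2 difference of -6.25 (-7.70 to -5.13). *Kdr* was at 390 CPM in lymphatic and 435 CPM in blood endothelial cells, and the interval of its log2 difference, -0.33 to 0.02, held 0. By library this difference was -0.34 (-0.57 to -0.11) in suffix 1 and 0.08 (-0.21 to 0.36) in suffix 2. *Nrp2* was lower in lymphatic cells in both libraries, at 191 against 264 CPM over both, a log2 difference of -0.47 (-0.72 to -0.22).

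Of the ligands, *Vegfb* and *Vegfc* differed between the endothelia with both libraries pooled. *Vegfb* was higher in lymphatic cells in both libraries, at 41.8 against 9.43 CPM over both, a log2 difference of 2.15 (1.38 to 2.94). No *Vegfc* UMI was found in lymphatic cells, where 3 counts would be 3.39 CPM. Blood endothelial cells had 29 UMIs at 10.9 CPM (7.32 to 15.7), 13 in suffix 1 and 16 in suffix 2. Within each library the *Vegfc* intervals overlapped. *Vegfd* had 5 UMIs in lymphatic cells (5.64 CPM, 1.83 to 13.2) and 1 in blood endothelial cells (0.38 CPM, up to 2.10), with overlapping intervals. *Pgf* was 27.1 CPM in lymphatic and 53.9 CPM in blood endothelial cells, with 18.1 against 62.2 CPM in suffix 1 and 42.0 against 44.9 CPM in suffix 2, where the interval of the log2 difference held 0 (-1.06 to 0.76). Its UMIs lay in 6 of 56 lymphatic cells (up to 10 in 1 cell) and 18 of 220 blood endothelial cells (up to 32 in 1 cell). With so few cells carrying *Pgf*, no order between the endothelia is given.

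**Figure D3:**
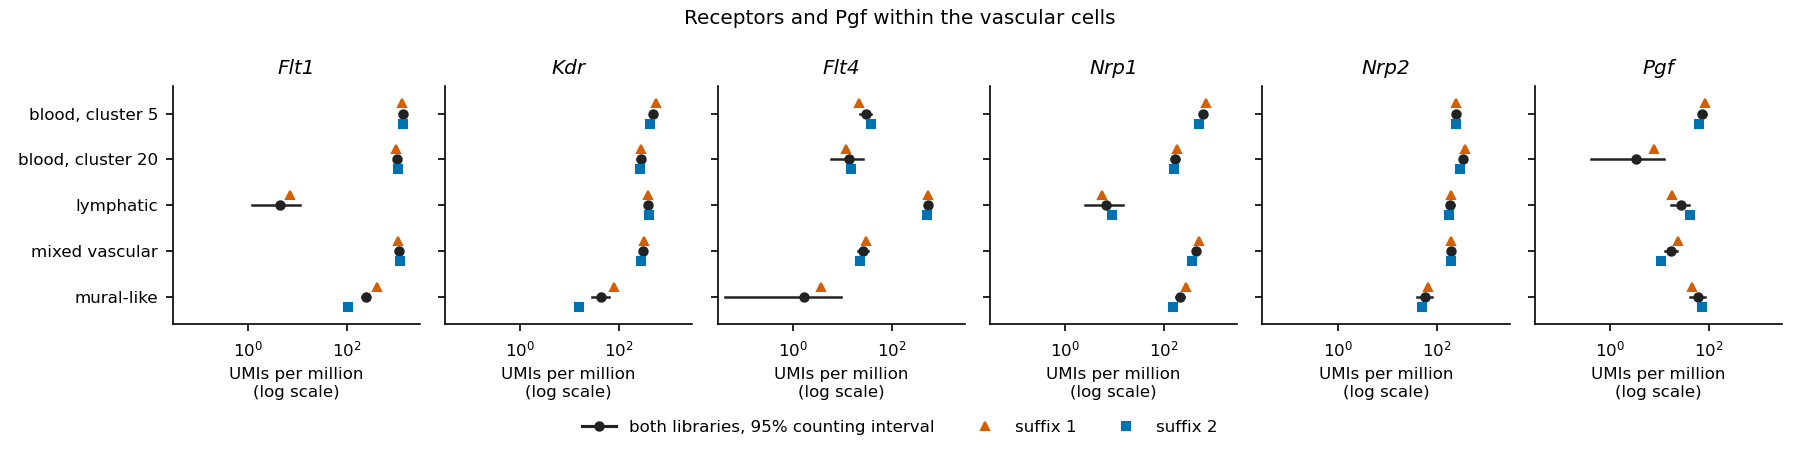
Levels of the 5 receptors and *Pgf* (CPM, log axis) in 2 blood endothelial clusters, lymphatic, mixed vascular and mural-like cells, with 95% counting intervals and both libraries. *Flt1* and *Nrp1* lie under 10 CPM in lymphatic cells and *Flt4* lies above 500, while *Kdr* is at 390 in lymphatic and 487 in cluster 5 cells.

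Within blood endothelium, 183 cells of cluster 5, led by *Fabp4* and *Aqp1*, had more *Flt1*, *Kdr* and *Nrp1* than 31 cells of cluster 20, led by *Selp* and *Plvap*. *Nrp1* was at 622 CPM (587 to 658) in cluster 5 and 167 CPM (135 to 203) in cluster 20, and *Kdr* at 487 and 271 CPM. *Flt1* differed less, at 1343 and 1044 CPM. *Flt4* was at 29.6 CPM (22.4 to 38.4) in cluster 5 and 13.6 CPM (5.88 to 26.8, 8 UMIs) in cluster 20, with overlapping intervals. *Nrp2* went the other way, with 248 CPM (226 to 271) in cluster 5 and 337 CPM (292 to 387) in cluster 20, in both libraries. *Pgf* was at 73.2 CPM in cluster 5, where 17 of 183 cells held it, with up to 32 UMIs in 1 cell. In cluster 20 it was at 3.40 CPM, with 2 UMIs in 1 of 31 cells. With so few cells carrying *Pgf*, no order between the clusters is given. *Vegfa* was at 61.3 CPM in cluster 20 and 23.4 in cluster 5, but this order held in suffix 1 alone (125 against 18.4 CPM) and turned in suffix 2 (12.1 against 29.1 CPM). Of the 36 *Vegfa* UMIs in cluster 20, 23 lay in 1 cell, and suffix 1 had only 14 cells there.

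Detection in single cells gave the following counts. Of 203 blood endothelial cells thinned to 2000 UMIs, 174 had *Flt1*, 109 had *Kdr*, 126 had *Nrp1* and 65 had *Nrp2*. *Flt1* and *Kdr* were found together in 98 cells, and *Flt1* and *Nrp1* in 114. *Kdr* and *Nrp1* were found together in 81 cells, and 49 cells had neither. With *Flt1* found in most of these cells, large overlaps with it follow from the single counts alone. Association between the genes was not tested. Of 52 thinned lymphatic cells, 32 had *Flt4*, 20 had *Kdr* and 13 had both, while none had *Flt1* and 2 had *Nrp1*.

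Neuropilins were not restricted to vessels. Macrophage-like cells held 49.2% of all *Nrp2* UMIs, at 225 CPM (218 to 232), close to the 245 CPM of endothelial-like cells (229 to 262). By library endothelial-like and macrophage-like cells had 250 against 221 CPM in suffix 1 and 240 against 237 CPM in suffix 2, a log2 difference of 0.13 over both (0.02 to 0.23). The interval held 0 in suffix 2 (-0.15 to 0.19), and the direction turned by the mean of cells' CPM (-0.17) and with vascular clusters unsplit (-0.10), so no order is given. Dendritic-like cells had 187 CPM of *Nrp2*, fibroblast-like cells 89.3, mural-like cells 58.3 and keratinocyte-like cells 41.8. *Nrp1* was at 389 CPM in endothelial-like cells (369 to 410) and 441 in mixed vascular cells (417 to 466). Mural-like cells had 212 CPM, macrophage-like cells 114 (109 to 119), fibroblast-like cells 31.4, dendritic-like cells 17.4 and keratinocyte-like cells 5.87. Both neuropilins were highest, among macrophage-like cells, in clusters 2 and 3, which share *Ccl8*, *Pf4* and *Folr2* as leading genes. In those 2 clusters together *Nrp2* was at 400.5 CPM and *Nrp1* at 184 CPM, against 162 and 88.6 CPM in the other macrophage-like cells, log2 differences of 1.31 (1.22 to 1.40) and 1.06 (0.93 to 1.18).

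The same *Folr2* clusters were low in *Vegfa* and high in *Vegfb*. *Vegfa* was at 42.9 CPM there and 102 CPM in the other macrophage-like cells, a log2 difference of -1.25 (-1.47 to -1.04). *Vegfb* was at 34.8 against 6.24 CPM, a log2 difference of 2.48 (2.09 to 2.87). *Vegfb* was 38.6 CPM in cluster 2 and 30.4 CPM in cluster 3. The 5 skeletal muscle markers summed to 87.4 CPM in cluster 2 and 348 CPM in cluster 3, against 101 CPM in the whole macrophage-like class, and their part in the *Vegfb* level was not tested. *Vegfa* was highest in cluster 12, led by *Ly6c2* and *Ms4a4c*, at 143 CPM (123 to 165), and lowest in cluster 2 at 23.0 CPM (17.5 to 29.7). The difference held in both libraries, with 135 and 244 CPM in cluster 12 and 20.4 and 33.4 CPM in cluster 2, although cluster 12 had only 11 cells of suffix 2.

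*Kdr* in macrophage-like cells lay mainly in one set of them. In clusters 12 and 7, the pair led by *Ly6c2*, a gene of classical monocytes, 67 of 344 cells (19.5%) held 141 *Kdr* UMIs, up to 9 in 1 cell. In the other macrophage-like cells 13 of 1197 (1.09%) held 14 UMIs, and in dendritic-like cells, whose median depth was 14454.5 UMIs, 5 of 498 (1.00%) held 5. The levels were 24.8 against 1.11 CPM, a log2 difference of 4.48 (3.68 to 5.39). By library the *Ly6c2*-led level was 27.8 CPM in suffix 1 and 15.4 CPM in suffix 2, against 1.34 and 0.35 CPM in the others, with a *Kdr* UMI in 17.6% of 290 *Ly6c2*-led cells in suffix 1 and 29.6% of 54 in suffix 2. Cells with a *Kdr* UMI were deeper, at a median of 16089 UMIs against 12421. After thinning to 2000 UMIs the gene was detected in 5.19% of cluster 7 and 4.03% of cluster 12.

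Most *Ly6c2*-led cells, with or without *Kdr*, had no endothelial marker UMI. Of the 67 cells with *Kdr*, 46 (68.7%) had no UMI of any of the 8 endothelial markers, against 76.5% of the *Ly6c2*-led cells without *Kdr*, and these markers summed to 26.9 CPM in the *Ly6c2*-led cells. *Kdr* made up 24.7% of *Kdr* and *Flt1* UMIs together in blood endothelium (23.5 to 26.0) and 98.9% in lymphatic endothelium (97.1 to 99.7). It was 86.5% in cluster 12 (76.5 to 93.3; 64 *Kdr* and 10 *Flt1* UMIs) and 45.3% in cluster 7 (37.7 to 53.1). *Cdh5* had 2454 UMIs in blood endothelial cells and 21 in the *Ly6c2*-led cells. Restricted to cells without an endothelial marker UMI, an alternative chosen after seeing the data, the log2 difference in *Kdr* was 4.74 (3.84 to 5.79). Among cells without *Kdr*, 76.5% of *Ly6c2*-led and 88.2% of other macrophage-like cells met this restriction, so most cells stayed. Whether endothelial RNA gave any of the *Kdr* UMIs was not tested.

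*Flt1* outside the vessels followed another set of phagocytes. Cluster 1, dendritic-like and led by *Ear2* and *Cd209a*, had 477 *Flt1* UMIs in 148 of 337 cells, a level of 101 CPM (92.5 to 111), with 106 and 91.7 CPM by library. Cluster 4, macrophage-like and led by *Retnla*, *Lyz1* and *Ear2*, had 36.5 CPM (30.9 to 42.8), with 22.0 CPM in suffix 1 and 91.7 in suffix 2. The other macrophage-like and dendritic-like clusters had at most 22.4 CPM. *Kdr* had 3 UMIs in cluster 1 and none in cluster 4, against 477 and 151 of *Flt1*, so that *Kdr* made up 0.63% of the pair in cluster 1 (0.13 to 1.82). Of the 148 cells of cluster 1 with *Flt1*, 109 (73.6%) had no UMI of the 8 endothelial markers, against 75.7% of its cells without *Flt1*. Cluster 1 also carried 66.5 CPM of *Pgf*, a ligand of VEGFR-1 (59.4 to 74.3; 67.9 and 63.3 by library), and dendritic-like cluster 15, led by *Cd209e*, carried 92.2 CPM (77.3 to 109).

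**Figure D4:**
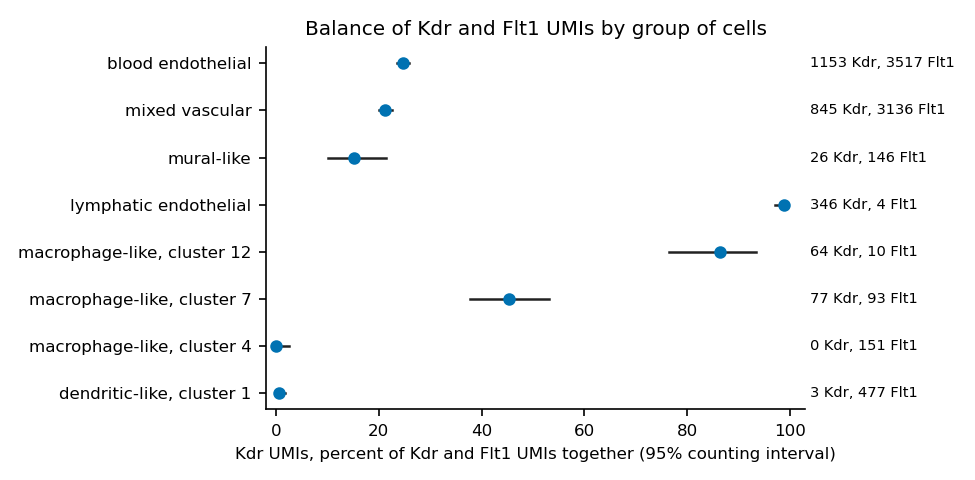
Share of *Kdr* among the *Kdr* and *Flt1* UMIs of a group, with 95% counting intervals and both UMI sums at the right. Blood endothelial, mixed vascular and mural-like cells lie between 15 and 25%, lymphatic cells and macrophage-like cluster 12 above 85%, and clusters 4 and 1 under 1%.

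The name of cluster 1 rests on few genes. Its 10 macrophage markers summed to 7192 CPM, against 16750 in the macrophage-like class, and its 7 dendritic markers to 1555 CPM, with *Cd209a* giving 5915 of their 7313 UMIs. When cells were named one by one from their own markers, without clusters, 3 of its 337 cells were dendritic-like, 97 macrophage-like and 219 unnamed. The dendritic-like class then held 22 cells with 2 *Flt1* UMIs, and its *Flt1* level was below that of macrophage-like cells, with a log2 difference of -2.26 in place of 2.09.

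**Figure D5:**
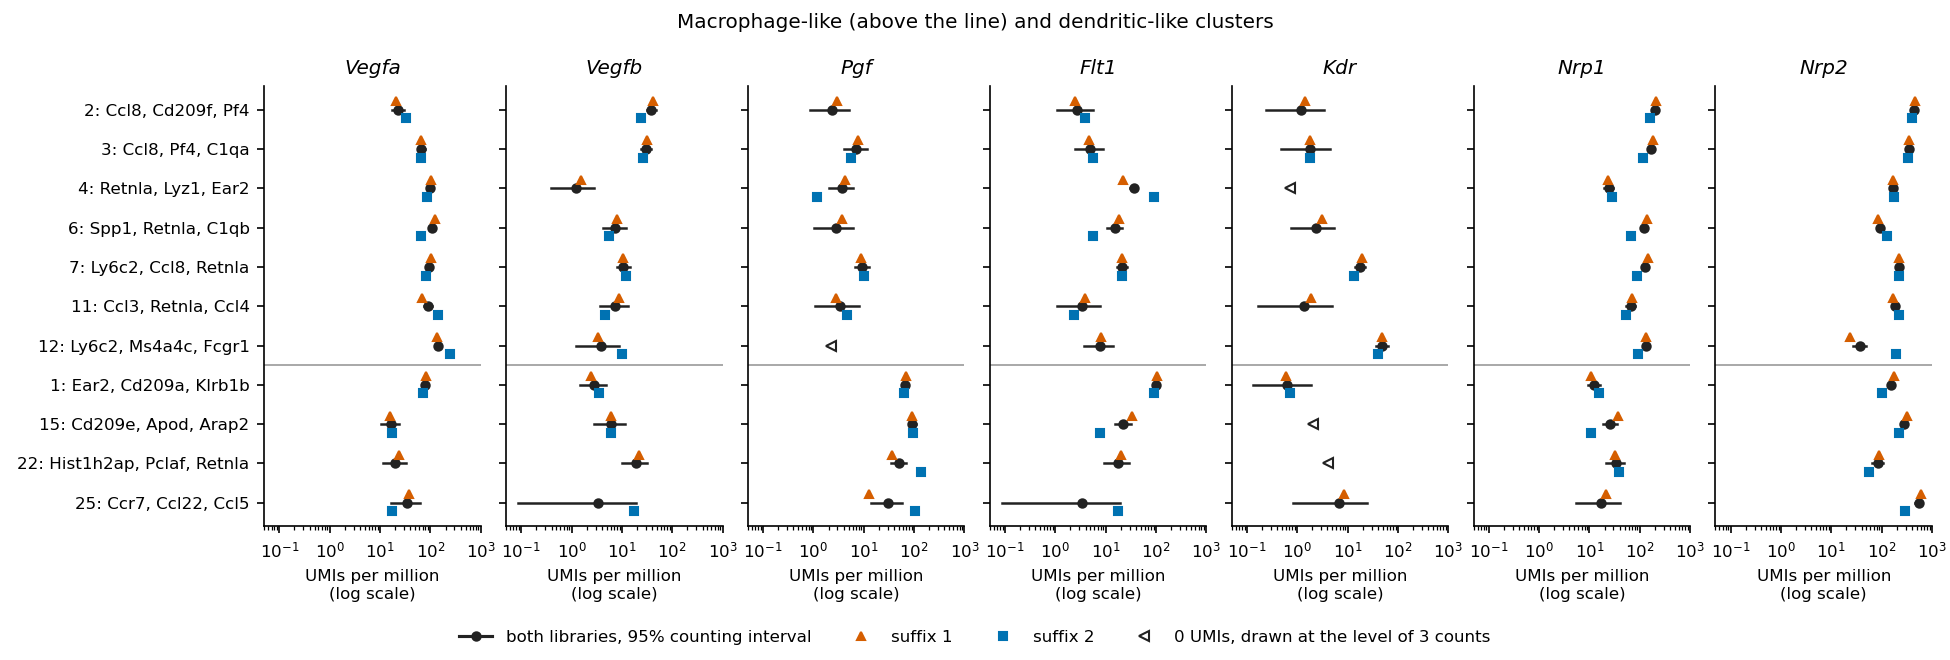
Levels of 7 members (CPM, log axis) in the 7 macrophage-like clusters, above the line, and 4 dendritic-like clusters, each named by its number and 3 leading genes, with 95% counting intervals and both libraries. *Kdr* stands out in clusters 12 and 7, *Flt1* in clusters 1 and 4, *Pgf* in the dendritic-like clusters, and both neuropilins are high in clusters 2 and 3.

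Patterns over all 26 clusters placed each member beside other genes, by Pearson's r of log2(CPM + 10). *Flt1* was most like *Sox17*, *C1qtnf9* and *Tmem252* (r from 0.91 to 0.92), *Kdr* like *Icam2*, *Nova2* and *Podxl* (0.94 to 0.95), and *Flt4* like *Klhl4*, *Clca3a1* and *Fzd6* (0.91 to 0.97). *Nrp1* was most like *Nus1*, *Cd36* and *Cd38* (0.84 to 0.87), and *Nrp2* like *Ago3*, *Soga1* and *Ncoa3* (0.77 to 0.83). Among the ligands *Vegfd* had the closest neighbours, *Nox4*, *Osr1* and *Pamr1* (0.94 to 0.95), followed by *Vegfc* with *Csf1*, *Mfge8* and *P4ha2* (0.84 to 0.87). *Vegfb* came with *Mllt11*, *Nipsnap2* and *Stau2* (0.78 to 0.81), *Vegfa* with *Axl*, *Thbs1* and *Por* (0.72 to 0.75) and *Pgf* with *Lag3*, *Plekhg2* and *Afmid* (0.72 to 0.76). The clusters share 2 libraries and differ in depth, so these values describe the table and carry no test.

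Of 47 further pathway genes, 43 had at least 50 UMIs in the 5 classes. Endothelial-like cells led 10 of them, fibroblast-like and keratinocyte-like cells 4 each, macrophage-like cells 1 and mural-like cells none. Over all genes the shares led were 4.22% by endothelial-like, 5.44% by fibroblast-like, 6.34% by keratinocyte-like, 8.56% by macrophage-like and 4.04% by mural-like cells. In the angiopoietin and Tie system, endothelial-like cells led 3 of 6 genes. These were the receptors *Tek* (109 CPM) and *Tie1* (218 CPM) and *Ptprb* (428 CPM), the phosphatase that restrains them. Fibroblast-like cells led the ligand *Angpt4* (14.9 CPM), with a log2 lead of 3.16 (0.67 to 8.47) over mural-like cells, which had 1 UMI. The ligands *Angpt1* (23.3 CPM, 14 UMIs) and *Angpt2* (61.6 CPM, 37 UMIs) were highest in mural-like cells, without a 2-fold lead. Of the endothelial VEGF signalling and tip cell genes, 7 of 10 had enough UMIs and endothelial-like cells led 4. They were *Nos3*, the endothelial nitric oxide synthase (99.5 CPM), *Dll4*, a Notch ligand of tip cells (96.7 CPM), *Aplnr*, the apelin receptor (48.9 CPM), and *Plcg1*, a phospholipase downstream of VEGFR-2 (39.8 CPM). For *Nos3* (0.54 to 1.70) and *Plcg1* (0.62 to 1.58) the interval of the log2 lead reached below 2-fold.

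The class 3 semaphorins and the plexins were spread over the classes. Of 7 class 3 semaphorins, endothelial-like cells led *Sema3f* (164 CPM), fibroblast-like cells *Sema3b* (127 CPM) and keratinocyte-like cells *Sema3e* (34.5 CPM). Of 5 plexins, endothelial-like cells led *Plxna2* (181 CPM) and *Plxna4* (40.1 CPM), and keratinocyte-like cells *Plxna3* (7.33 CPM). The interval of the log2 lead of *Plxna3*, 0.52 to 2.20, reached below 2-fold. *Ccbe1*, which is required for the maturation of VEGF-C, was led by fibroblast-like cells with 273 of its 274 UMIs, at 20.2 CPM, and its partner *Adamts3* had only 7 UMIs in the 5 classes.

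Of 8 oxygen-sensing genes macrophage-like cells led *Vhl* (14.0 CPM), which encodes the subunit that targets HIF for degradation, and keratinocyte-like cells *Egln3* (22.4 CPM), a prolyl hydroxylase of HIF. Of 9 hypoxia targets fibroblast-like cells led *Adm*, the vasodilator adrenomedullin (110 CPM), and keratinocyte-like cells *Pdk1* (39.2 CPM), a kinase of glucose metabolism. Single genes in lists this short are near the shares over all genes given above. The interval of the log2 lead reached below 2-fold for *Vhl* (0.68 to 1.38), *Egln3* (0.59 to 1.87) and *Pdk1* (0.79 to 1.75), but not for *Adm* (1.26 to 1.78).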

How the data were processed

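Cells from the skin of 4 mice, pooled 2 to a library, had been sorted and sequenced as 10x 3′ gene expression libraries. Per the labels, the authors counted reads with Cell Ranger 4.0.0 on mm10. The deposited matrix holds raw UMI counts of 32285 genes in 5257 barcodes, with no statement in the sources of how barcodes were chosen.

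A barcode was kept if it had 500 or more genes and 1000 or more UMIs, and if mitochondrial UMIs made up no more than 10%. Cells were clustered with scanpy 1.11.5 (Leiden, resolution 1) without the members and the pathway genes, and clusters were named from marker lists. The rule that split vascular clusters cell by cell, from endothelial and mural marker UMIs, was set after the clusters were seen. No doublet caller was run. Leaving out cells with markers of a second class was one alternative.

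UMIs were summed per class and given as CPM with exact Poisson intervals. Log2 differences have exact conditional binomial intervals, and shares of cells have exact Clopper-Pearson intervals after thinning to 2000 UMIs, without shallower cells. A count of 0 was given the limit of 3 counts. All intervals cover counting error only. The level and ratio intervals, the 2-fold rule and the thinning were tested on simulated counts with counting error alone. Clustering, class naming and the split of vascular cells were not simulated. Genes with at least 50 UMIs over the 5 classes entered the 2-fold rule, and like patterns were sought as the 3 genes of highest r for each member. The members and lists were chosen with earlier results of these data known. Sequences were matched to RefSeq for all 10 members.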

Additional observations from a re-analysis of the deposited data

Results flagged for a closer look

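The 1460 barcodes that the filter removed, which entered no comparison, held 5403713 UMIs, of which 2561 were of the 10 genes. *Flt1* (710), *Nrp2* (623), *Nrp1* (493) and *Kdr* (256) gave most of them. Each member had more UMIs than the 3 that a count of 0 allows, down to 19 for *Vegfc*, which is why these unused barcodes are listed here. Of these barcodes, 1149 were above the mitochondrial limit. Their cell types were not assigned.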

How the results depend on the processing

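Endothelial-like cells led 3 or 4 members under every alternative, always *Flt1*, *Kdr* and *Flt4*. Fibroblast-like cells led 2 members under the stricter cell filter and in suffix 2 alone. They led 1 when cells were named from their own markers, without mixed cells, by the mean of cells' CPM, at 1.5-fold, with vascular clusters unsplit and with mural-like cells lacking 3 endothelial markers, the last 2 chosen after seeing the data. Mural-like cells led 1 when named from own markers (*Pgf*) and in suffix 1 (*Vegfc*). On the log2 scale, fibroblast-like over macrophage-like *Vegfa* was 0.16 under the stricter filter. Endothelial-like over mural-like *Flt1* was 2.82 with the looser filter, 3.32 by own markers, 5.66 without mixed cells, 1.17 and 3.35 in suffix 1 and 2, 2.86 by the mean of cells' CPM and 4.79 with mural-like cells lacking 3 endothelial markers. The same ratio of *Kdr* was 4.12 with the looser filter, 4.52 by own markers and 2.54 and 4.67 in suffix 1 and 2. *Ly6c2*-led over other macrophage-like *Kdr* was 2.65 with the looser filter, 3.38 with the stricter and 5.47 in suffix 2. Dendritic-like over macrophage-like *Flt1* was 2.55 with the stricter filter, 2.75 at resolution 2, 2.42 with the members among the variable genes, 2.37 with a larger set of variable genes, 2.48 and 1.17 in suffix 1 and 2, and 2.31 by the mean of cells' CPM. By own markers it turned to -2.26 and that of *Pgf* to -0.13, with 22 dendritic-like cells left. For the other changes the cause was not tested. With vascular clusters unsplit no mural-like class remained, and without clusters the *Ly6c2*-led cells could not be defined, so these ratios gave no value. Depth limits *Vegfc*, *Vegfd* and *Flt4* in mural-like cells, which rest on 9, 9 and 1 UMIs. No paired analysis was possible because each age had 1 library and no test was run.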
